A study of Mus musculus with 8 samples.

Results

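Gad1, Gad2, Slc32a1, Dlx1, Dlx2, Dlx5, Lhx6, Sst, Npy and Calb2 are genes by which neurons that release gamma-aminobutyric acid (GABA) are usually recognised. These 10 genes were chosen by name, as a measure of the inhibitory neurons in each culture, out of 18301 genes summed from the deposited transcript counts. All 10 were in the table, and 7 had enough counts in both assays to be tested. Dlx1, Dlx2 and Dlx5 did not pass that filter and are given as counts.

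The libraries came from mouse neurons differentiated from CGR8 embryonic stem cells and kept for 8 days in vitro in Neurobasal-A with B27. The neurons were labelled as cortical and glutamatergic, and were either wildtype (WT) or labelled as an Eif4g1/Eif4g3 double knockout (DKO). All cultures were given cycloheximide, which stalls ribosomes, at 100 µg/ml for 5 min. Ribosome footprints, the mRNA fragments that ribosomes protect, and total RNA were each sequenced from 2 WT and 2 DKO cultures, 8 libraries in 4 groups of 2.

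The series is titled after eIF4G microexons, and a sum over a whole gene cannot show whether a small exon is missing. In footprints Eif4g1 had 300 and 263 CPM (counts scaled to library size) with WT, against 154 and 287 with DKO. In RNA it had 288 and 280 CPM with WT, against 125 and 305 with DKO. Eif4g3 had 169, 153, 164 and 172 CPM in footprints and 120, 128, 103 and 138 CPM in RNA, in the same order. Eif4g1 was thus low in both assays of the first DKO culture but not of the second. These sums do not check the genotype labels. The library names carry a culture code. WT replicate 2 is coded WT, while WT replicate 1 and both DKO cultures carry codes beginning with c, whose meaning is not stated. The code of DKO replicate 2 is spelled differently in the footprint and RNA libraries, so that its pairing across assays is less certain. Nothing in the labels says whether the 2 libraries of a group came from separate differentiations, and the p-values measure only the spread between these libraries, which may be technical. Depth ran from 10490535 to 19753419 counts in footprints and from 14762047 to 44786643 in RNA.

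GABA is made from glutamate by 2 glutamate decarboxylases, encoded by Gad1 and Gad2, and is loaded into synaptic vesicles by the transporter encoded by Slc32a1, which also carries glycine. In the developing forebrain the homeodomain factors Dlx1, Dlx2 and Dlx5 act in the progenitors of GABAergic neurons, and Lhx6 acts in cortical interneurons born in the medial ganglionic eminence. Sst (somatostatin) and Npy (neuropeptide Y) are peptides, and Calb2 (calretinin) a calcium-binding protein, that mark subclasses of interneurons. Outside the forebrain, GABAergic and glycinergic neurons of the brainstem and spinal cord use the same enzymes and vesicular transporter without the Dlx genes, and all 3 subclass markers also occur in other neurons.

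Footprints report on translation, so the bases around the start codon are shown for the 8 genes with more than a few counts (Dlx2 and Dlx5 are left out), with the ATG in capitals, 9 bases before it and 3 after. Each comes from the annotated coding isoform of GENCODE M21 (GRCm38) that held most of the RNA counts of the coding isoforms.
Gad1: accgagctgATGgca
Gad2: gcagaacccATGgcg
Slc32a1: gccgccgccATGgcc
Dlx1: cgagaagagATGacc
Lhx6: ccccaggtgATGgcc
Sst: gcaaggaagATGctg
Npy: cccgccacgATGcta
Calb2: cggctcgccATGgct
An A or G 3 bases before the ATG and a G right after it are the main positions of the Kozak context, the consensus around vertebrate start codons. Gad1 and Gad2 both have C at the first of these positions, and the other genes have A or G there. Among 12372 isoforms chosen by the same rule, 86.3% had A or G at that position, 52.3% had G right after the ATG and 45.1% had both. Slc32a1, Lhx6 and Calb2 have both. Slc32a1 and Sst each have 1 further ATG upstream in the 5′ leader, the annotated leader of Dlx1 has 20, and 51.8% of all isoforms have at least 1. The leaders of Gad1, Gad2, Npy, Calb2 and Lhx6 have none. These are descriptions of annotated sequence, and whether they bear on the footprint values below was not tested.

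The genes for making and packaging GABA were abundant in every library. Gad1 (chromosome 2, 70553072 to 70602014, GRCm38) had footprint levels of 189 and 180 CPM (WT replicates 1 and 2) and of 183 and 173 CPM (DKO replicates 1 and 2). Its RNA levels, in this order, were 107, 107, 85.8 and 104 CPM. The 4 footprint libraries lay within 1.09-fold of each other, and in RNA the first DKO culture was lowest. Isoforms annotated as coding held 61.2% of its footprint and 61.8% of its RNA counts, and the rest was assigned to 1 isoform not annotated as coding.

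Gad2 (chromosome 2, 22622205 to 22693874), which encodes the decarboxylase found mainly at nerve terminals, had 167 and 138 CPM in the WT footprint libraries and 132 and 142 CPM in the DKO ones. Its RNA levels were 103 and 105 CPM for WT, then 81.5 and 94.7 CPM for DKO. Slc32a1 (chromosome 2, 158610767 to 158615748) had 248 and 225 CPM in the WT footprint libraries and 215 and 248 CPM in the DKO ones. Its RNA levels were 57.4 and 53.3 CPM for WT, then 46.2 and 61.0 CPM for DKO, so the WT and DKO ranges overlapped in both assays. In both assays the first DKO culture was the lowest of the 4 for Gad2, Slc32a1 and Lhx6, as it was for 9.2% of all tested genes. For Gad1 that was so in RNA only.

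The peptide and calcium-binding markers varied more. Sst (chromosome 16, 23889573 to 23890958) had 181 and 113 CPM in WT footprints against 190 and 198 CPM in DKO footprints, and in RNA 51.9 and 32.1 CPM against 55.6 and 57.0 CPM. Calb2 (chromosome 8, 110137502 to 110168210) had 206 and 140 CPM in WT footprints against 216 and 199 CPM in DKO footprints, and in RNA 80.8 and 60.7 CPM against 80.6 and 86.8 CPM. Npy (chromosome 6, 49822710 to 49829507) had 37.7 and 31.2 CPM in WT footprints against 33.9 and 41.7 CPM in DKO footprints, and in RNA 8.69 and 7.21 CPM against 7.89 and 8.42 CPM. All 3 were lowest in WT replicate 2 in both assays.

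The forebrain transcription factors were low, and Dlx2 and Dlx5 were near the limit of detection. Lhx6 (chromosome 2, 36081953 to 36105408) had footprint counts of 9 and 11 with WT, 2 and 20 with DKO, and RNA counts of 24, 43, 59 and 21 in the same order, between 1.21 and 1.77 CPM in RNA. Dlx1 (chromosome 2, 71528113 to 71533981) had footprint counts of 22, 8, 6 and 11 and RNA counts of 57, 49, 93 and 32, again WT before DKO. Coding isoforms held 5.2% of the Dlx1 RNA counts, the rest being assigned to retained-intron isoforms, and the start context shown for Dlx1 comes from an isoform with 2.6% of its RNA counts. Dlx2 (chromosome 2, 71543408 to 71546754) had 10 footprint and 9 RNA counts over all libraries. Dlx5 (chromosome 6, 6877805 to 6882085) had 12 footprint and 2 RNA counts, and was at 0 in 2 of the 4 RNA libraries. A count of 0 allows up to 3 counts, which is between 0.0614 and 0.192 CPM in these RNA libraries, and this floor covers counting error only.

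**Figure D1:**
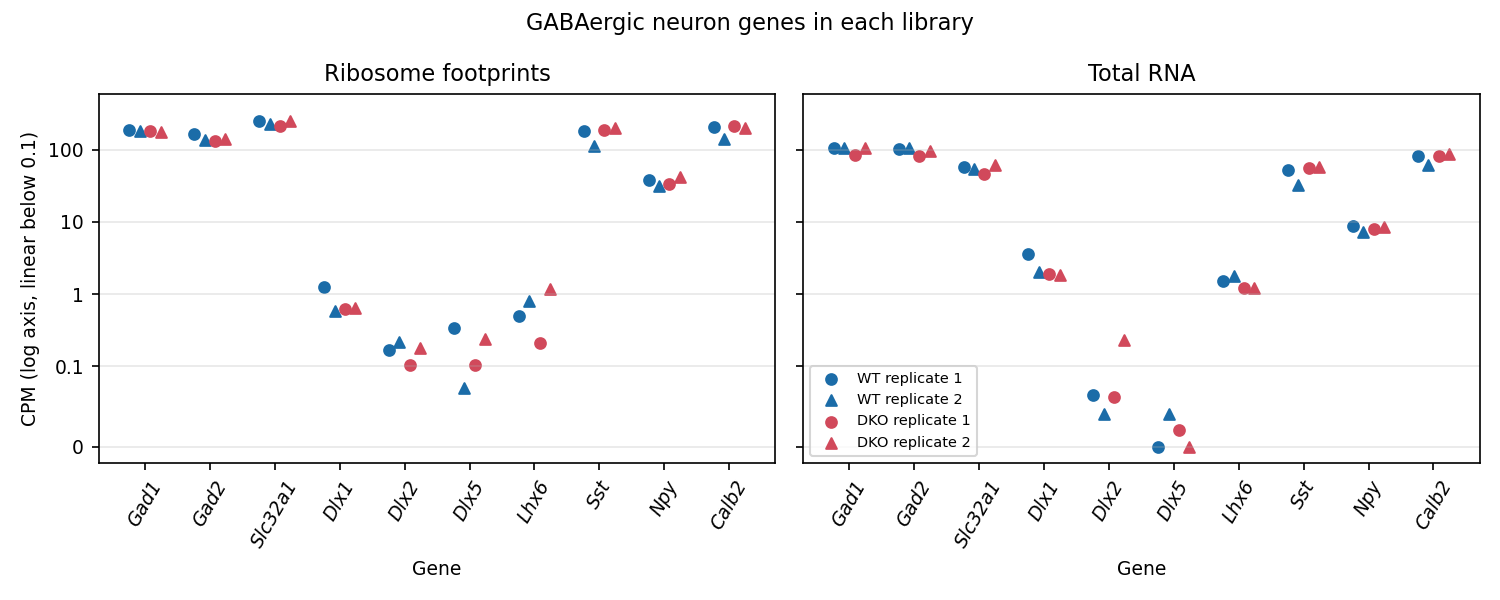
CPM of the 10 GABAergic neuron genes in each footprint library (left) and total RNA library (right), on an axis that is logarithmic above 0.1 and linear below it; blue is WT, red is DKO, circles are replicate 1 and triangles replicate 2. Gad1, Gad2, Slc32a1, Sst and Calb2 lie between 32.1 and 248 CPM, Npy between 7.21 and 41.7, and Dlx1, Dlx2, Dlx5 and Lhx6 between 0 and 3.64.

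To compare genes with each other, RNA was expressed per kilobase of transcript and scaled to the same total in each library. On this scale Sst had the highest mean level, 134 ± 32.7 (SD over the 4 RNA libraries), and Calb2 followed at 106, with ranges that overlapped (86.0 to 155 and 81.8 to 119). Gad1 followed at 62.5, above Gad2 at 42.1 and Slc32a1 at 38.1, whose ranges overlapped each other. Npy stood at 27.8, separate from its neighbours. Dlx1 at 1.81 and Lhx6 at 0.998 came next, and Dlx2 at 0.113 and Dlx5 at 0.0217 did not differ beyond their spread. Among all genes of the table, Sst lay at the 93.0th percentile of the RNA level, Gad1 at the 83.2nd, Slc32a1 at the 73.7th, Lhx6 at the 28.8th and Dlx5 at the 8.7th.

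Footprints, per kilobase of coding sequence, gave another order. Sst led at 414 and Calb2 followed at 198, with separate ranges. Slc32a1 at 126 and Npy at 105 overlapped each other and stood above Gad1 at 72.6 and Gad2 at 60.6, which also overlapped. Dlx1, Lhx6 and Dlx5 lay between 0.282 and 1.39, with ranges that overlapped in turn, and Dlx2 was last at 0.0591. The Dlx1 level was 0.246 and 0.163 with WT and 2.68 and 2.47 with DKO. It includes a coding isoform of only 66 coding bases, with footprint counts of 0, 0, 2 and 3 in that order. The place of Dlx1 thus rests on few counts. When the length of the longest coding isoform was used instead, 8 of the 20 levels moved by more than their SD, among them the RNA level of Sst, to 174, and of Gad1, to 77.1.

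Longer lists held both abundant and scarce genes. Of 49 other genes of forebrain GABAergic neurons in the table, 38 passed the filter, 28 stood at 10 CPM or more in all 4 footprint libraries and 18 stood under 10 CPM in all 4. The genes named here from the longer lists were chosen after their values were seen. Regulators stood on both sides. Nkx2-1, which specifies the medial ganglionic eminence, and its partner Lhx8 had 0 footprint counts in all 4 libraries and no more than 2 RNA counts in any. Dlx6, the neighbour of Dlx5, reached at most 1.01 CPM in footprints and 2.80 CPM in RNA, and the interneuron marker Pvalb at most 0.872 and 0.584 CPM. Among regulators that also act in other neurons, Meis2 stood at 243 to 271 CPM in footprints, Zfhx3 at 111 to 147 CPM and Nr2f2 at 39.0 to 40.4 CPM. The GABA transporter Slc6a11 (418 to 551 CPM in footprints), which astrocytes make, and the GABA-degrading enzyme Abat (254 to 306 CPM) were abundant. The level of Slc6a11 need not come from inhibitory neurons.

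Some genes of inhibitory neurons outside the forebrain were present. Of 17 such genes in the table, 15 passed the filter, 7 stood at 10 CPM or more in all 4 footprint libraries and 8 stood under 10 CPM in all 4. Slc6a5, the glycine transporter of glycinergic nerve endings, had 159, 155, 147 and 155 CPM in the footprint libraries, WT before DKO, within the range of Gad1 and Gad2. Lhx1, a factor of brainstem and spinal interneurons among other cells, stood at 71.1 to 90.9 CPM in footprints, Pax2 at 25.9 to 44.2, Lbx1 at 19.8 to 30.7 and Pax8 at 10.7 to 12.6. Among the low genes, Gata3 stood at 1.25 to 3.49 CPM and Tal1 at 1.36 to 3.71 CPM, both factors of GABAergic neurons of the midbrain and hindbrain. Ptf1a, a progenitor factor of spinal and hindbrain inhibitory neurons, had at most 3 footprint counts in a library.

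The label of the cultures as cortical and glutamatergic was checked in the same way. Emx1, a factor of cortical progenitors, reached a mean RNA level of 0.122 per kilobase, Fezf2, of deep-layer cortical neurons, 0.0225, and Tbr1, of early cortical neurons, 1.48. Slc17a7, the vesicular glutamate transporter of most cortical neurons, reached 0.0549, while Slc17a6, the vesicular glutamate transporter of subcortical and many immature neurons, reached 77.0 ± 30.1 (SD, n = 4). Other genes of that list, which mark cortical layers but also occur in other neurons, were higher, with Cux1 at 98.0, Cux2 at 24.4, Rorb at 18.9 and Bcl11b at 4.42. Of the 24 glutamatergic genes in the table, 8 stood at 10 CPM or more in all 4 footprint libraries and 15 under it in all 4. Emx1, Fezf2 and Slc17a7 were thus near the floor, Tbr1 was low, and glutamatergic and inhibitory transporter genes were both present.

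**Figure D2:**
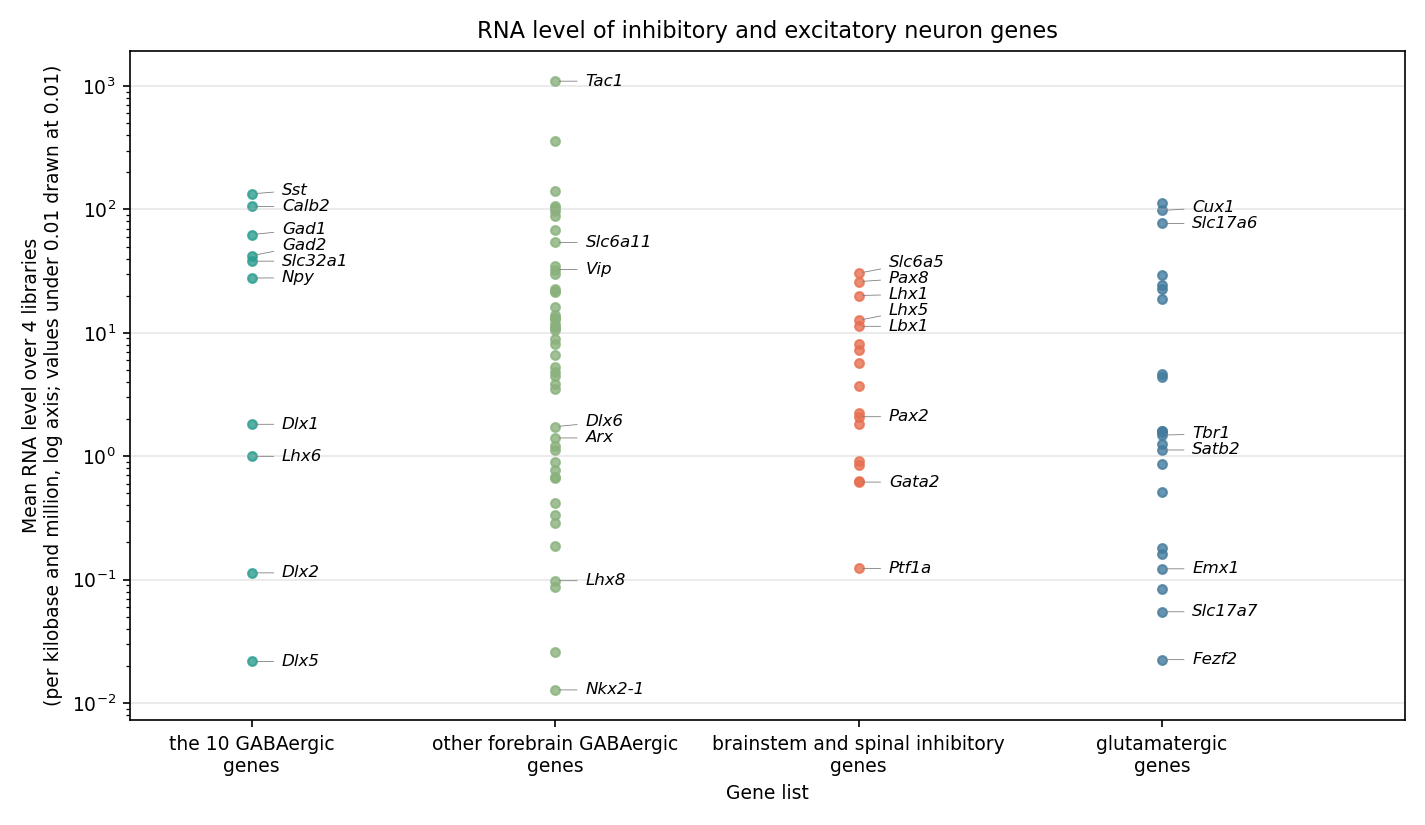
Mean RNA level over the 4 RNA libraries, per kilobase of transcript and scaled to the same total per library, on a log axis, for genes of 4 lists, with some of them named. Among the 10 genes Sst is highest at 134 and Dlx5 lowest at 0.0217, Slc6a5 stands at 30.4 in the brainstem and spinal list, and Emx1, Fezf2 and Slc17a7 lie between 0.0225 and 0.122 in the glutamatergic list.

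The vesicular transporters give a ratio of an inhibitory to an excitatory gene in each culture and assay. Per kilobase, the ratio of Slc32a1 to Slc17a6 RNA was 0.510 and 1.01 for WT, then 0.305 and 0.500 for DKO. In footprints it was 1.66 and 3.35 for WT, then 1.02 and 1.42 for DKO, higher than in RNA in every culture. Slc32a1 lay at the 98.8th percentile of footprints over RNA, so the footprint ratio is not a ratio of transcripts. Both WT ratios lay above both DKO ratios in each assay, with little between the nearest pair in RNA, and the ratio was not tested. Slc17a6 varied more over cultures than Slc32a1. It stood at 79.3, 36.5, 114 and 93.9 in footprints (WT replicates 1 and 2, then DKO replicates 1 and 2), while Slc32a1 stood at 132, 123, 116 and 133 on the same scale. The sum of Gad1, Gad2 and Slc32a1 stayed within 248 to 267 in footprints and within 125 to 150 in RNA. In bulk samples, fewer cells of a type and less RNA per cell cannot be told apart.

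**Figure D3:**
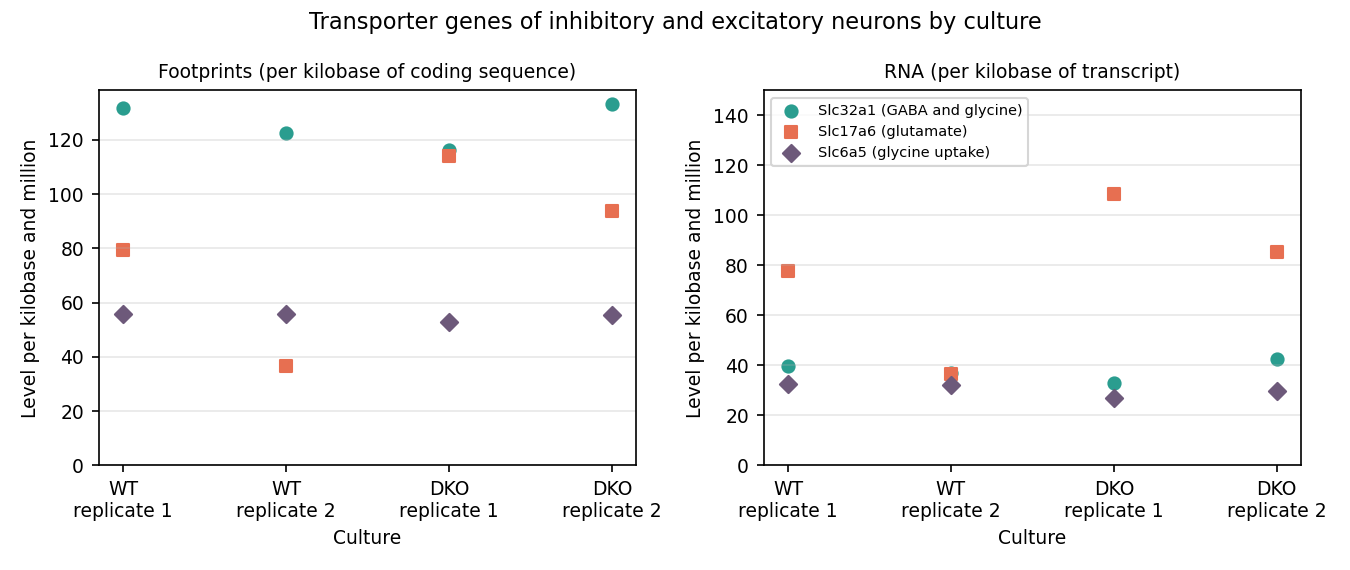
Scaled level per kilobase of Slc32a1, Slc17a6 and Slc6a5 in each culture, in footprints (left, coding sequence) and RNA (right, transcript); 1 point per library. Slc32a1 and Slc6a5 keep a narrow range across the 4 cultures, and Slc17a6 is lowest in WT replicate 2 in both assays, at 36.5 and 36.4.

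The first comparison asked whether these genes differed between the genotypes in footprints. None of the 7 tested genes was called, meaning an adjusted p under 0.05 in edgeR's quasi-likelihood test with Benjamini-Hochberg adjustment over all 12898 tested genes, against a background of 0.00775% of all genes. None had an unadjusted p under 0.05, and DESeq2 and limma-voom called none either. The log2 fold changes of DKO over WT were -0.05 ± 0.11 (SE) for Gad1, -0.15 ± 0.11 for Gad2 and -0.03 ± 0.13 for Slc32a1. They were 0.40 ± 0.28 for Sst, 0.27 ± 0.19 for Calb2 and 0.14 ± 0.14 for Npy, and 0.28 ± 0.61 for Lhx6. The median of the 7 was 0.14, beside 0.0028 for all tested genes, and it was 0.01 without WT replicate 2. Only Sst had both DKO libraries above both WT libraries, as did 16.3% of all tested genes, and none had both below, as did 16.2%.

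In RNA, too, none of the 7 was called, against a background of 0.0155%, none had an unadjusted p under 0.05, and DESeq2 and limma-voom called none. The decarboxylases had the values nearest to the threshold. Gad2 stood at -0.25 ± 0.11 on the log2 scale (edgeR adjusted p = 0.851) and Gad1 at -0.17 ± 0.11 (edgeR adjusted p = 0.853), with both DKO libraries below both WT libraries for each. Slc32a1 stood at -0.05 ± 0.13, Sst at 0.43 ± 0.29, Calb2 at 0.24 ± 0.19, Npy at 0.04 ± 0.16 and Lhx6 at -0.45 ± 0.47. Of the 7, Gad1, Gad2 and Lhx6 had both DKO libraries lower, beside 18.9% of all tested genes, and Sst had both higher, beside 19.6%. The median of the 7 was -0.05, beside -0.0015 for all tested genes, and it was -0.11 without WT replicate 2.

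Translational efficiency, the change of footprints relative to the change of RNA, was tested as an interaction. None of the 7 was called, against a background of 0% of all genes, of which 110 had an unadjusted p under 0.05. No member had an unadjusted p under 0.05, and DESeq2 and limma-voom called no member. The largest of the well-counted members was Gad1 at 0.12 ± 0.15, followed by Npy at 0.10 ± 0.22 and Gad2 at 0.10 ± 0.16. Slc32a1 stood at 0.02 ± 0.19, Calb2 at 0.02 ± 0.27 and Sst at -0.03 ± 0.41. Lhx6 stood at 0.72 ± 0.77, on 42 footprint counts in all. The fit had no term for culture, so these SEs include any spread between cultures that both assays share. The same is true of the SEs of footprints against RNA below. With a term for culture, no member was called for translational efficiency either.

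The values of Sst and Calb2 turned on the 2 WT cultures. Sst in WT replicate 1 was 1.61 times its level in WT replicate 2 in footprints and 1.62 times in RNA, and Calb2 was 1.47 and 1.33 times. Without both libraries of WT replicate 2, the log2 fold change of Sst was 0.09 in footprints and 0.12 in RNA, and that of Calb2 0.01 and 0.05. Without both libraries of WT replicate 1, Sst was called at 0.80 in footprints (edgeR adjusted p = 0.00265) and 0.81 in RNA (edgeR adjusted p = 0.00323), and Calb2 in footprints at 0.59 (edgeR adjusted p = 0.0192). In that fit the lone WT library of each assay was assumed to vary like the other groups, and the background rose to 3.93% of genes in footprints and 3.58% in RNA. The value of both genes thus depended on which WT culture was kept.

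WT replicate 2 was the lowest culture in both assays for 18.7% of all tested genes, and for Sst, Npy and Calb2 among the 7. Some other peptide genes, named after their values were seen, were low there as well. Vip in WT replicate 1 was 4.36 times its level in WT replicate 2 in footprints, Tac1 4.2 times, Pdyn 2.81 times and Penk 2.05 times. Crh was 1.18 times its level there. Cck went the other way, at 3.15 CPM in WT replicate 1 and 3.85 CPM in WT replicate 2 footprints. None of these peptide genes was called between genotypes. The summed levels of other cell types' genes are given beside these values. None of those genes was called between genotypes, and the sums were not tested. The summed level of 11 fibroblast, mural and endothelial genes was 348 and 933 CPM in WT and 583 and 192 CPM in DKO footprints, and that of 10 oligodendrocyte genes 929 and 1155 CPM in WT and 731 and 787 CPM in DKO. Of 12 progenitor and radial glia genes, the sum was 5020 and 5515 CPM in WT and 4065 and 4449 CPM in DKO footprints. The sum of 9 astrocyte genes kept a narrow range, at 2162, 2157, 2105 and 2022 CPM in the same order. Single astrocyte genes did not all do so. In footprints Gfap had 45.4 CPM in WT replicate 1 and 168 CPM in WT replicate 2. Aldoc, the largest part of the sum, went the other way, with 1094 and 916 CPM. No gene of the 4 lists of other cell types was at 0 in any library, and the part of these cells in the Sst, Npy and Calb2 values was not tested.

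**Figure D4:**
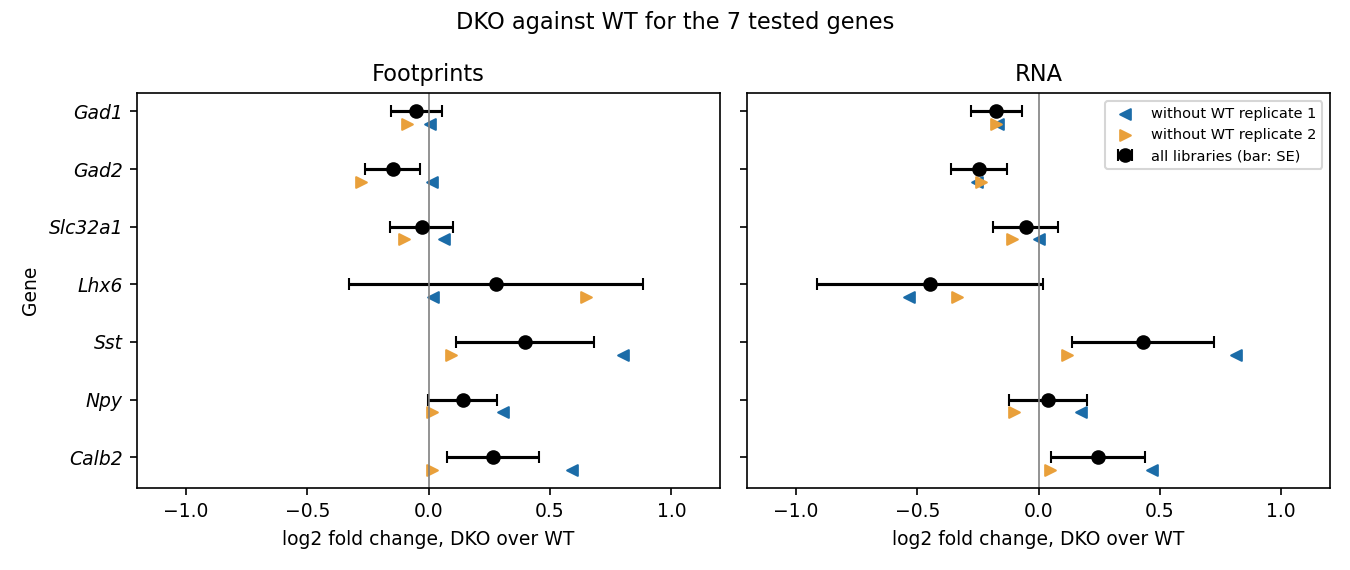
log2 fold change of DKO over WT for the 7 tested genes in footprints (left) and RNA (right); black points and bars are the estimate and its SE over all libraries, and triangles leave out both libraries of WT replicate 1 (blue) or WT replicate 2 (orange). Sst moves from 0.80 to 0.09 in footprints between these omissions, while Gad1 lies between -0.090 and 0.0038.

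The longer lists gave the same absence of calls. Of the 38 tested genes of forebrain GABAergic neurons none was called in footprints or RNA. In RNA 27 of them had a negative value, their median was -0.17, and 18 had both DKO libraries below both WT libraries, a pattern that 18.9% of all tested genes had. Without WT replicate 2 that median was -0.11. Among these Foxp2, a transcription factor, stood at -0.37 ± 0.09 (edgeR adjusted p = 0.801) and Nxph1, a secreted neurexin ligand, at -0.52 ± 0.13 (edgeR adjusted p = 0.801). In footprints 24 had a negative value, with a median of -0.08, and the lowest p belonged to the transcription factor Etv1, at -0.38 ± 0.11. Of the 15 tested brainstem and spinal genes none was called. Their medians were -0.20 in footprints and -0.23 in RNA, and -0.07 and -0.09 without WT replicate 2. Pax8 stood at -0.48 ± 0.13 in RNA (edgeR adjusted p = 0.851). Of 14 tested glutamatergic genes none was called, with medians of -0.05 in footprints and -0.13 in RNA. Without WT replicate 2 these were -0.06 and 0.08, so that the RNA median turned its direction.

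Relative to RNA, these genes differed widely in how many footprints they carried. All 7 tested genes were called between footprints and RNA, where 74.8% of all genes were called. Of them 6 were higher in footprints, a call made for 36.5% of all genes, and Lhx6 was lower, a call made for 38.2%. Npy had 4.52 times as many footprints as RNA after scaling to library size (log2 2.18 ± 0.11, edgeR adjusted p = 6.8e-09), at the 99.0th percentile of all tested genes. Slc32a1 had 4.32 times as many (log2 2.11 ± 0.10, edgeR adjusted p = 4.1e-09), at the 98.8th percentile, and Sst 3.49 times (log2 1.80 ± 0.21, edgeR adjusted p = 0.000294), at the 97.6th.

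The remaining genes lay closer to the centre. Calb2 had 2.47 times as many footprints as RNA, at the 93.6th percentile, Gad1 1.80 times, at the 84.3rd, and Gad2 1.51 times, at the 75.8th. The decarboxylases, with C at the Kozak position shown above, thus had lower ratios than the other 4 genes, which have A or G there. Lhx6, with G there, had the lowest ratio of all, and a link between the base and the ratio was not tested. The ratios were not corrected for length. In the isoforms shown above, coding sequence made up 1755 of 5744 bases for Gad2 and 1575 of 2797 for Slc32a1. Per kilobase, each assay on its own scale, Lhx6 stood at 0.955 in footprints and 0.998 in RNA. The part of length in the order of the genes was not tested. The start context shown for Lhx6 comes from an isoform with footprint counts of 1, 0, 0 and 6, WT before DKO. Another coding isoform of Lhx6 had footprint counts of 8, 7, 2 and 14 and RNA counts of 0, 2, 2 and 0. Lhx6 had a log2 value of -1.0 ± 0.38 (edgeR adjusted p = 0.031), at the 13.9th percentile. Its call was lost with DESeq2 (adjusted p = 0.081) and with coding isoforms only (edgeR adjusted p = 0.062). It was also lost in 7 of the 12 fits that left out a library or a culture, with edgeR adjusted p from 0.070 to 0.198. These were the fits without WT replicate 1 or DKO replicate 1 in footprints, WT replicate 2 or either DKO replicate in RNA, and the whole culture of WT replicate 1 or DKO replicate 1.

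Over cultures the ratio varied little for Slc32a1 and Sst and widely for Lhx6. Slc32a1 footprints stood at 4.33 and 4.22 times the RNA level in the WT cultures and at 4.66 and 4.07 times in the DKO cultures. For Sst the ratios were 3.49, 3.50, 3.42 and 3.46, the same in WT replicate 2, where both its RNA and its footprints were low, as elsewhere. For Gad1 they were 1.77, 1.68, 2.14 and 1.66, the third in the DKO culture with the low RNA. For Lhx6, on 2 to 20 footprint counts a library, they were 0.331, 0.451, 0.172 and 0.963. Scaling each assay on its own lowered the log2 value of all genes by a median of 0.23, and the share of higher among the called genes from 48.8% to 36.2%. The calls of the 7 genes and their directions were the same under it.

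**Figure D5:**
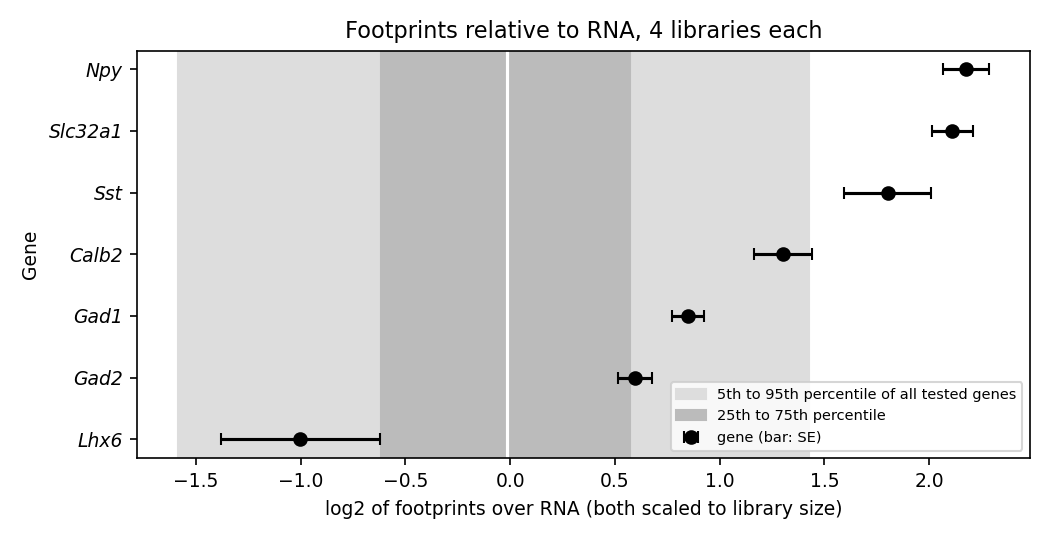
log2 of footprints over RNA for the 7 tested genes, from 4 libraries of each assay with the SE as bars; the grey bands run from the 25th to the 75th and from the 5th to the 95th percentile of all 12898 tested genes. Npy, Slc32a1 and Sst lie beyond the 95th percentile of 1.43, and Lhx6 lies at -1.0, within the wider band.

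Footprints relative to RNA in the longer lists spread to both sides. Of the 38 forebrain GABAergic genes 14 were called higher in footprints and 10 lower, where 36.5% and 38.2% of all tested genes were. The GABA transporter Slc6a11 stood at a log2 of 2.09 ± 0.11, close to Slc32a1, and Erbb4, a neuregulin receptor of interneurons, at -1.29 ± 0.07. Of the 15 brainstem and spinal genes 7 were called higher and 4 lower, against the same background of 36.5% and 38.2%, with Pax2 at 2.96 ± 0.13, Lhx1 at 1.15 ± 0.08, Slc6a5 at 0.86 ± 0.06 and Pax8 at -1.68 ± 0.10.

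The genes most like the mean of Gad1, Gad2 and Slc32a1 were sought by Pearson's r over the 8 libraries after centring each assay. The search covered 11006 tested genes of at least 5 CPM. It left out every gene of the 10 lists, the other inhibitory neuron genes among them, so their likeness is not ranked here. The 8 libraries come from 4 cultures and share their depth and composition, so r is a description. Hsph1, a heat shock protein, had r = 0.989, and Cadm1, a synaptic adhesion molecule, r = 0.982. They were followed by Kirrel at 0.979 and by Snrk and Ntng1 at 0.978 each. The shared profile was highest in WT replicate 1 footprints and lowest in DKO replicate 1 RNA, at 0.12 above and 0.23 below the centre on the log2 scale.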

How the data were processed

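The authors deposited a table of estimated counts for 60528 transcripts in 8 libraries. FastQC, Trimmomatic, Bowtie and kallisto are named per the submitters' processing notes. Versions, parameters, the transcript set and the strand setting were not given in the sources used here. Antisense genes overlap Gad1, Slc32a1 and Dlx1 in the annotation and are not among the transcripts used here.

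Transcripts were matched to GENCODE M21 (99.86%) and summed per gene. The 84 without a match held at most 0.151% of a library. edgeR 4.0.16 with TMM scaling, filterByExpr in both assays and the robust quasi-likelihood test was fitted to 4 group means over 8 libraries (4 residual degrees of freedom). RNA levels per kilobase divide each isoform by its length, and footprint levels divide coding isoforms by coding length. Both are scaled to the same total per library. Likeness used log2(CPM + 1) of tested genes outside all lists. DESeq2 1.42.0 and limma 3.58.1 served as alternatives, and the fit was tested on simulated data. Named genes are the 10 members, up to 4 called genes per list and comparison (otherwise up to 2 whose groups did not overlap), and 5 genes by likeness. Other genes, such as Vip, Slc17a6 or Emx1, were named after their values were seen. The 10 genes and all lists were chosen with earlier results of these data known. Some listed genes are not reported here.

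Libraries with the same culture code deviated together across assays in WT (r over genes of 0.672). In DKO, where the code of replicate 2 is spelled differently in the 2 assays, r was weak at 0.206. Libraries of the 2 genotypes share only a number.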

Additional observations from a re-analysis of the deposited data

How the results depend on the processing

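The number of the 10 genes called ranged from 0 to 2 in footprints and from 0 to 1 in RNA when libraries or cultures were left out, was 0 for translational efficiency in each such fit, and ranged from 6 to 8 for footprints against RNA. A block was also fitted, of replicate number for footprints and for RNA, and of culture for translational efficiency and footprints against RNA. With it the numbers called were 0, 0, 0 and 7, and the genes called in RNA among all tested went from 2 to 0. The same-numbered WT and DKO libraries had correlations of -0.149 in footprints and -0.0902 in RNA. DESeq2 called 5 genes in footprints and 13 in RNA. Without WT replicate 1, 520 and 473 were called. Small values changed sign. With coding isoforms only, translational efficiency stood at -0.0073 for Slc32a1 and -0.0069 for Calb2, and with limma-voom Lhx6 footprints stood at -0.044. The cause was not tested. With libraries left out, the log2 difference in footprints ranged from -0.090 to 0.0038 for Gad1, -0.28 to 0.013 for Gad2, -0.13 to 0.073 for Slc32a1, -1.60 to 0.88 for Lhx6 and -0.019 to 0.31 for Npy. In RNA it ranged from -0.26 to 0.15 for Slc32a1 and -0.10 to 0.21 for Npy. In translational efficiency it ranged from -0.051 to 0.31 for Gad1, -0.044 to 0.27 for Gad2, -0.19 to 0.19 for Slc32a1, -1.15 to 1.32 for Lhx6, -0.46 to 0.36 for Sst, -0.078 to 0.25 for Npy and -0.24 to 0.34 for Calb2. The median footprint-over-RNA value of the tested genes was 1.30, 1.07 with each assay scaled alone and 1.52 with a mean count of at least 50. With 2 libraries a group, differences of the size of the SEs given were not detectable, and for Dlx2 and Dlx5 depth allowed no comparison. Larger differences could be missed as well. In simulated data, of 100 genes changed 2-fold, 78 were called in footprints, 79 in RNA and 59 for translational efficiency. Of 100 changed 1.5-fold, 40, 43 and 11 were called, so the absence of calls between genotypes leaves room for such differences.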
